A study of Mus musculus with 32 samples.

Results

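The comparison described here is day 6 against day 4 of mouse retinal organoid differentiation in cells labelled as a Mettl3 knockout that carry a METTL3-GRBD fusion and were cultured with dexamethasone (Dex, a synthetic glucocorticoid). It was defined by the sample labels and holds 4 of the 32 libraries of the series, 2 on each day, and all 16276 genes that could be tested of the 55492 rows in the deposited expression table. The study followed 4 kinds of culture grown from mouse embryonic stem cells: the Rx:GFP parental line, labelled WT, the same line with Mettl3 knocked out, labelled KO, and the knockout overexpressing wild-type METTL3-GRBD, labelled without or with Dex. Rx:GFP names a green fluorescent reporter of the Rx gene, whose symbol in the table is Rax. METTL3 is the catalytic subunit of the enzyme complex that writes N6-methyladenosine (m6A) on RNA, and the study's design text places the fusion protein in the cytosol when Dex is absent and in the nucleus when it is present. Per the labels the Dex concentration was 10 µM, and all cultures on days 4 and 6 were kept in AGN at 0.1 µM. All 4 kinds of culture share the Rx:GFP background, and all but WT share the knockout. The labels spell out neither GRBD nor AGN, name no promoter for the overexpressed fusion and do not say whether the KO or fusion line is 1 clone. Cells without the fusion were not given Dex, so an effect of Dex itself and one of the relocated fusion cannot be told apart. Per the labels the 2 libraries of a group were prepared and sequenced separately, but separate cultures are not stated, and p-values therefore measure the spread between these libraries, which may be technical.

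The values are FPKM, fragment counts corrected for transcript length and library depth. Depth, estimated from the spacing of low values, was 33.5 and 35.3 M (mega) fragments in the day 4 libraries and 37.4 and 40.1 M on day 6, within a range of 28.3 to 54.4 M over the series. At the depths of these 4 libraries, 3 fragments on a transcript of 2 kb amount to 0.044 to 0.053 FPKM, a limit that covers counting error only. Duplicates correlated at 0.9966 on day 4 and 0.9971 on day 6, across genes on the log2(FPKM + 1) scale. A correlation across all genes says little about the spread. For genes with a single annotated transcript and a mean of at least 1000 estimated fragments, squared differences of duplicates were compared with counting error. Their median was 2.07 times that of counting error on day 4 and 1.88 times on day 6. Mettl3, the gene manipulated, read 49.8 and 51 FPKM on day 4 and 44.5 and 48.8 FPKM on day 6, a log2 change of -0.11 ± 0.06 (adjusted p = 0.122) that did not pass the test. It passed without replicate 2 of day 6 (-0.18, adjusted p = 0.0444) and with a median-of-ratios scaling of the libraries (-0.17, adjusted p = 0.0211). KO libraries also carried Mettl3 reads (36.6 ± 2.5 FPKM on day 4, mean ± SD, n = 2), so this gene-level value checks neither the knockout nor the fusion.

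In the embryo, the retina and the retinal pigment epithelium both arise from the optic vesicle, an outgrowth of the forebrain. A set of eye field transcription factors, among them Rax, Six3, Six6, Lhx2 and Pax6, marks the vesicle. Its outer wall then turns on Mitf and the pigment genes, its distal wall becomes neural retina, and its ventral stalk turns on Pax2 and Vax1. Wnt and BMP signals are known to favour the pigmented layer, FGF signals the neural layer.

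Between day 4 and day 6 the Dex cultures changed broadly. Of the 16276 genes tested, 10598 were called at an adjusted p under 0.05 (65.1%), 6083 higher (37.4%) and 4515 lower (27.7%) on day 6, by limma's moderated test with Benjamini-Hochberg adjustment. A log2 change of at least 1 was reached by 1732 called genes (10.6%), 1127 higher (6.92%) and 605 lower (3.72%). The values of the 2 days did not overlap for 13160 genes (80.9%). Because so many genes were called, the counts below are read against these shares. Changes are on the log2(FPKM + 1) scale, ± their standard error, and understate the change of genes with low values. The median change over all genes was 0.042. Protein-coding genes were called more often (9619 of 13625, 70.6%) than long intergenic non-coding RNAs (205 of 412, 49.8%), antisense RNAs (168 of 355, 47.3%) or processed pseudogenes (209 of 1064, 19.6%).

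**Figure D1:**
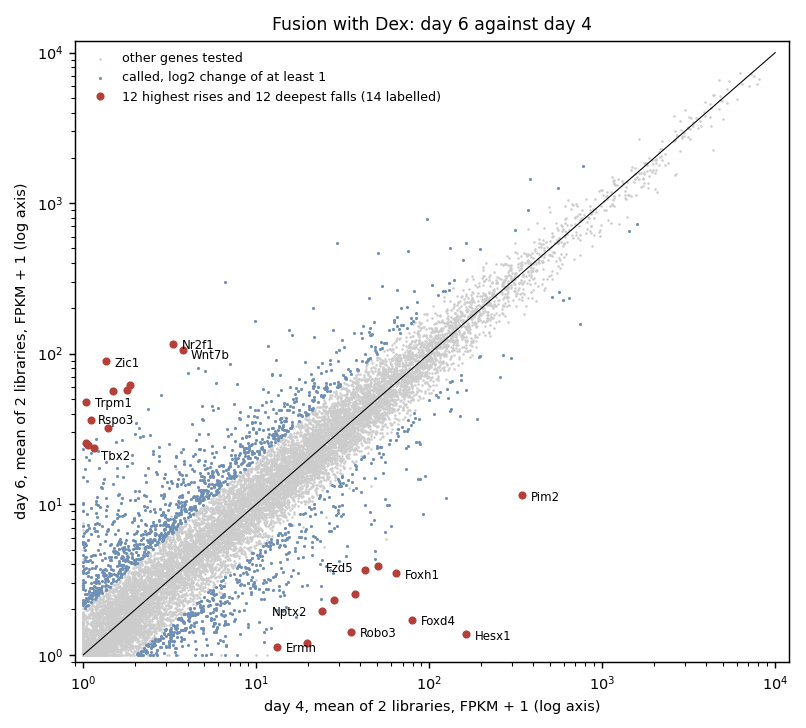
Mean FPKM + 1 of the 2 day 6 libraries (vertical, log axis) against that of the 2 day 4 libraries (horizontal, log axis) for each gene tested in the Dex cultures, with the diagonal of no change. Blue points are called genes with a log2 change of at least 1, and red points are the 12 highest rises and 12 deepest falls among genes reaching 5 FPKM. Zic1 and Trpm1 lie close to the left edge and Hesx1 close to the bottom edge.

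Genes of the pigment cell programme were among the largest rises. Promoters of 4 of them are shown because the binding site of MITF, the factor that drives pigment genes, is known to hold the 6 letters CATGTG, and because the 4 genes differed in level on day 6. The letters searched were CATGTG and its reverse complement CACATG, both forms of the E-box CANNTG, in the 250 bases before the start of each gene in RefSeq (GRCm38.p6). Capitals mark the matches and each sequence runs 5′ to 3′ on the gene's strand. The windows are chr7:64153585-64153834 (plus strand) for the first listed start of Trpm1, chr14:118052247-118052496 (minus strand) for Dct, chr7:87493513-87493762 (minus strand) for Tyr and chr4:80833963-80834212 (plus strand) for Tyrp1.
Trpm1: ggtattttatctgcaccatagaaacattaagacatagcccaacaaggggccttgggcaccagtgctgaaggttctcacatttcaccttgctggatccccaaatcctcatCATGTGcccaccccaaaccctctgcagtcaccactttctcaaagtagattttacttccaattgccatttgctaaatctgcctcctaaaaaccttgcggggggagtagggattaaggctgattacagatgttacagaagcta
Dct: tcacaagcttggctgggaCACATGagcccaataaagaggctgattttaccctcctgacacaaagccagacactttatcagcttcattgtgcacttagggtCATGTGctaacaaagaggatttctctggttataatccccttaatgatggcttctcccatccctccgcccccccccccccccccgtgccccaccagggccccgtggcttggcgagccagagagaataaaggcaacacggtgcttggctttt
Tyr: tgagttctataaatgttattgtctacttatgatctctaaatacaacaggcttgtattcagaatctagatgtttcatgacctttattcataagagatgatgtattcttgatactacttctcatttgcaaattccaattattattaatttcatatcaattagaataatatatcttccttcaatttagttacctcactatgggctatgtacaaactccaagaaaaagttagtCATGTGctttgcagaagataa
Tyrp1: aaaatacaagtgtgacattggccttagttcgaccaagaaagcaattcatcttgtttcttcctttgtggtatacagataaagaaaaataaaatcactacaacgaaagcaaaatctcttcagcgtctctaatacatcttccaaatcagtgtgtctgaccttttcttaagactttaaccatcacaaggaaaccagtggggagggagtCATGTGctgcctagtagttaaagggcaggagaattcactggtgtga
The match began 141 bases before the start in Trpm1, 232 and 150 in Dct, 21 in Tyr and 46 in Tyrp1. Of the 15 pigment cell genes listed, 9 had a promoter in the RefSeq table and 6 of these held a match, the other two being Slc24a5 at 13 bases and Oca2 at 186. Neither letter string was found in the windows of Mitf, Gpnmb and Rab27a, nor at the second start of Trpm1. Other forms of CANNTG were not searched. The windows at the second starts of Trpm1 and Rab27a hold CACGTG, so these windows do not lack every E-box. A match was present for 13.8% of all genes there, and in 12.3% of the 32851 promoters. A match describes these letters only, not a binding site.

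Genes whose windows held the letters lay at very different levels. Trpm1, which encodes a cation channel of melanocytes and bipolar cells and hosts the microRNA gene Mir211, read 0.03 and 0.03 FPKM on day 4 and 45.8 and 47.6 on day 6. Its log2 change of 5.53 ± 0.12 (limma adjusted p = 4.23e-18) was the highest after that of Zic1. Dct, which encodes the melanin enzyme dopachrome tautomerase, went from 0.02 and 0.03 to 16.3 and 15.8 FPKM, a change of 4.06 ± 0.07 (adjusted p = 3.84e-20). For both genes the day 6 libraries lay far above the day 4 libraries, which were at the counting floor. Tyr, which encodes tyrosinase, the rate-limiting enzyme of melanin synthesis, was listed at 0 in all 4 libraries. Tyrp1 read 0.05 and 0.04 FPKM on day 4 and 0.54 and 0.43 on day 6 and stayed below the level needed for a test, as did Slc24a5 and Oca2.

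Other pigment cell genes rose from a measurable base. Pmel, which encodes the fibril protein of the melanosome, read 3.4 and 3.07 FPKM on day 4 and 34.7 and 31.5 on day 6 (log2 change 3.01 ± 0.15, adjusted p = 1.92e-12). Pmel overlaps Dgka and Cdk2 on the opposite strand, and its day 4 base may hold reads of these genes. Mitf itself went from 0.51 and 0.49 to 6.67 and 6.82 FPKM (2.37 ± 0.07, adjusted p = 9.3e-16). Rab38, a small GTPase of melanosome traffic, rose by 0.69 ± 0.12, and Otx1, an early factor of the pigmented layer that is also a forebrain gene, by 0.99 ± 0.04 from 21.8 and 20.8 to 42.7 and 43.5 FPKM. Rab27a, which tethers melanosomes, fell by 0.32 on the log2 scale. Of the 15 listed genes, 8 could be tested, 6 rose, 1 fell and Mlana, at or below 0.13 FPKM in all 4 libraries, was not called. Their median change was 1.68, against 0.042 over all genes. It was 0.51 with no filter, when every gene above 0 in a library counts, and 0.99 over members with a mean of at least 5 FPKM. The listed genes, Otx1 among them, summed to 33.2 and 33.1 FPKM on day 4 and to 159 and 157 on day 6. This sum also rose in KO, from 23.9 and 25.3 to 72.2 and 73.9 FPKM. It went from 22.1 and 22 to 55.7 and 55.7 FPKM in the fusion without Dex and from 11.8 and 13.6 to 30.5 and 31.7 in WT. In KO and without Dex, the day 6 means of Trpm1, Dct and Pmel were at most 0.595 FPKM, so the sum does not measure these genes alone. In bulk RNA, more cells of a type and more of its RNA per cell cannot be told apart.

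Genes of the mature pigment epithelium, whose products serve the visual cycle and the support of photoreceptors, moved less evenly. Of 15 listed, 9 could be tested, of which 7 rose and 1 fell, with a median change of 0.69, or 0.43 without replicate 1 of day 4 and 0.17 with no filter. Stra6, the retinol transporter of the pigment epithelium, rose from 2.02 and 2.1 to 12.9 and 13.4 FPKM (2.21 ± 0.09). Serpinf1, which encodes the pigment epithelium-derived factor PEDF, rose from 1.78 and 0.81 to 13.7 and 12.4 FPKM (2.65 ± 0.27). Slc16a1, a lactate transporter, fell by 0.95 on the log2 scale. Rpe65, Lrat and Rgr, which define the working visual cycle, stayed at or below 0.07 FPKM in all 4 libraries.

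Mitf, Dct, Pmel and Trpm1 are also expressed by melanocytes, which come from the neural crest, and neural crest markers moved with them. Of 15 neural crest genes tested, 13 rose and none fell, with a median change of 0.60 (0.26 at a mean of at least 5 FPKM), and the list summed to 49.0 and 47.3 FPKM on day 4 and to 89.6 and 87.6 on day 6. Sox10, the factor that specifies melanocytes and glia of the crest, read 0.81 and 0.61 FPKM on day 4 and 7.03 and 7.93 on day 6 (2.31 ± 0.09, adjusted p = 3.67e-14). Tfap2b rose from 0.37 and 0.13 to 5.08 and 3.84 FPKM, Msx2 from 4.48 and 4.74 to 14.6 and 14.1 FPKM and Ednrb, the endothelin receptor of melanoblasts, from 0.27 and 0.31 to 2.6 and 2.7 FPKM. On day 6 the crest list summed to 144 and 146 FPKM in the fusion without Dex and 197 and 201 in KO, both above the Dex cultures, and to 34.3 and 33.0 in WT. The part of crest cells in the pigment result was not tested.

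Eye field genes did not move as a block. Of 9 tested, 6 rose and 3 fell, with a median change of 1.87, or 0.37 at a mean of at least 5 FPKM. Rax read 74.2 and 74.8 FPKM on day 4 and 53.9 and 55.5 on day 6, a fall of -0.44 ± 0.06 on the log2 scale (adjusted p = 5.21e-06). Six3, a factor of the anterior neural plate and eye field, fell from 128 and 126 to 48.4 and 50.9 FPKM (-1.34 ± 0.07), and Otx2, which is needed for forebrain and pigment epithelium, from 223 and 218 to 138 and 137 FPKM (-0.68 ± 0.03). Against these 3 falls, the other 6 members of the set rose. Lhx2, which is required for the vesicle to become a cup, went from 66 and 68.8 to 154 and 155 FPKM (1.19 ± 0.14) and Pax6 from 41.5 and 39.6 to 154 and 149 FPKM (1.87 ± 0.15). Six6, the Six3 relative of the neural retina, began near 0 at 0.17 and 0.17 FPKM and reached 6.66 and 6.13 FPKM (2.66 ± 0.06). Nr2e1, a nuclear receptor of retinal and forebrain progenitors, rose from 0.31 and 0.13 to 21.9 and 21.4 FPKM (4.22 ± 0.07), Mab21l1 from 0.3 and 0.25 to 12 and 11.8 FPKM and Mab21l2 from 12.4 and 12.9 to 70.6 and 71.9 FPKM.

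The reporter did not follow Rax. The eGFP row read 66.5 and 66.9 FPKM on day 4 and 132 and 139 on day 6, a rise of 1.01 ± 0.20 (adjusted p = 0.000139), while Rax fell in the same libraries. With a pseudocount of 0.1 in place of 1 the eGFP change was as large (1.02) but did not pass (adjusted p = 0.203). In WT both rose, Rax from 31.1 ± 0.59 to 118 ± 4.7 FPKM and eGFP from 31.8 ± 0.61 to 195 ± 7.6 FPKM (mean ± SD, n = 2, as for the other lines throughout).

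**Figure D2:**
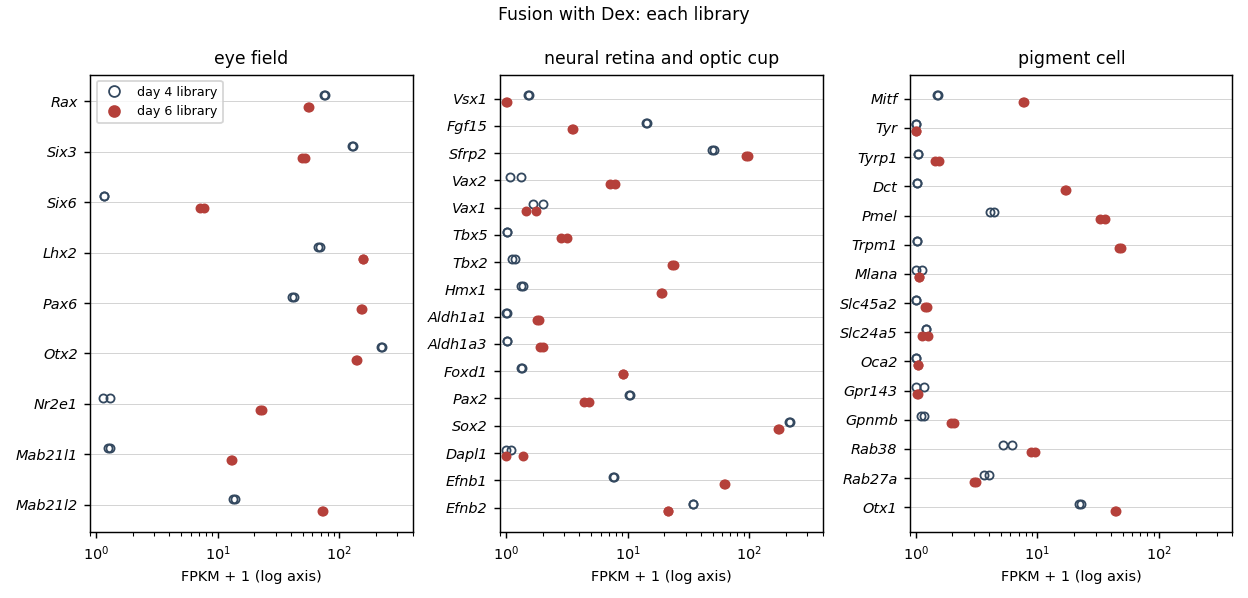
FPKM + 1 (log axis) of the listed eye field, neural retina and optic cup, and pigment cell genes that are reported here in the 2 day 4 libraries (open circles) and the 2 day 6 libraries (filled red circles) of the Dex cultures. Rax, Six3 and Otx2 shifted to lower values, Six6, Nr2e1, Tbx2, Trpm1 and Dct moved from close to 0, and Tyr stayed at 0.

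Among genes that pattern the optic cup, 11 of 16 tested rose and 4 fell, with a median change of 0.93, or 0.31 at a mean of at least 5 FPKM. The highest rise was that of Tbx2, a T-box repressor of the dorsal retina, which read 0.12 and 0.18 FPKM on day 4 and 22.2 and 23.2 on day 6 (4.37 ± 0.08, adjusted p = 6.11e-19), and Tbx5, its dorsal relative, rose from 0.02 and 0.02 to 2.2 and 1.84 FPKM (1.56 ± 0.05). Bmp4, the dorsal signal of the cup, read 12.2 and 4.69 FPKM on day 4 and 41.3 and 27.1 on day 6. Its duplicates differed widely and did not overlap between days (1.99 ± 0.33, adjusted p = 2.35e-05). Efnb1, a dorsal ephrin ligand, rose from 6.65 and 6.74 to 61.3 and 62.6 FPKM, while Efnb2, the other dorsal ephrin, fell from 33.5 and 33.6 to 20.3 and 20.6 FPKM.

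Genes of the nasal and of the temporal retina both rose. Hmx1 of the nasal retina rose from 0.32 and 0.39 to 18.1 and 17.8 FPKM (3.81 ± 0.13) and Foxd1 of the temporal retina from 0.33 and 0.36 to 8.19 and 8.24 FPKM (2.78 ± 0.05). Ventral and stalk genes diverged. Vax2, the ventral retina factor, rose from 0.32 and 0.09 to 6.87 and 6.23 FPKM (2.65 ± 0.14), Vax1 of the optic stalk was 1.01 and 0.68 and then 0.46 and 0.78 FPKM (adjusted p = 0.51, not called), and Pax2 of the stalk fell from 9.45 and 9.29 to 3.39 and 3.83 FPKM (-1.17 ± 0.05).

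Other genes of the neural retina went both ways. The retinoic acid enzyme genes of the retina rose to levels near 1 FPKM, Aldh1a1 from 0.02 and 0 to 0.81 and 0.87 FPKM (0.87 ± 0.05, adjusted p = 2.74e-11) and Aldh1a3 from 0.03 and 0.03 to 0.92 and 1.02 FPKM (0.94 ± 0.06, adjusted p = 1.48e-10). Fgf15, an FGF of the early neural retina and forebrain, fell from 13.1 and 13.4 to 2.48 and 2.59 FPKM (-2.01 ± 0.05). Atoh7, which starts ganglion cell production, stayed at or below 0.62 FPKM.

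The other leading rises were of several kinds. Zic1, a zinc finger factor of the dorsal neural tube, showed the highest change of any named gene, from 0.23 and 0.47 FPKM to 86.2 and 89.4 FPKM (6.05 ± 0.12, adjusted p = 1.19e-18). Nr2f1, a nuclear receptor of cortex and eye, rose from 2.61 and 1.99 to 113 and 118 FPKM (5.15 ± 0.09). Fam181a rose from 0.46 and 0.5 to 53.9 and 57 FPKM. Vtn, which encodes the matrix protein vitronectin, rose from 0.08 and 0 to 25.8 and 23.5 FPKM, and Wfdc1, which encodes a secreted protein, from 0.42 and 0.34 to 30.8 and 31.5 FPKM. For these 5 genes every day 6 value lay above every day 4 value, as the rule that chose them requires.

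The regional lists were mixed. Of 7 telencephalic genes tested, 5 rose and 1 fell, with a median change of 2.07, or 0.24 with no filter. Emx2, a dorsal telencephalic and optic vesicle factor, rose from 19.3 and 16.8 to 88.1 and 86.9 FPKM (2.22 ± 0.20) and Emx1 from 1.21 and 0.94 to 7.02 and 8.36 FPKM (2.07 ± 0.10). Dlx2 of the ventral telencephalon rose from 0.12 and 0.27 to 2.06 and 2.04 FPKM, and Nkx2-1, Gsx2 and Lhx8 of the same region stayed at or below 0.50 FPKM. Of 10 diencephalic genes tested, 7 rose and 2 fell, with a median change of 0.70, or 0.34 with no filter and -0.053 at a mean of at least 5 FPKM. Wnt8b, a Wnt ligand of the dorsal midline, went from 6.3 and 6.49 to 47.1 and 44 FPKM (2.65 ± 0.07), Barhl2 from 0.22 and 0.18 to 7.3 and 7.06 FPKM and Dbx1 from 0.58 and 0.61 to 8.41 and 8.01 FPKM, while Lhx5 fell from 72.5 and 75 to 38.8 and 39.6 FPKM (-0.89 ± 0.06). Of 13 midbrain and hindbrain genes tested, 6 rose and 3 fell, with a median change of 0.11. That median was 0.0072 without replicate 2 of day 6 and 0.61 at a mean of at least 5 FPKM. En1 and Pax5 of the midbrain and hindbrain border fell, En1 from 3.15 and 2.97 to 0.47 and 0.37 FPKM, and Wnt1 rose from 4.25 and 4.19 to 15.1 and 15.1 FPKM (1.63 ± 0.05). Hoxb1, Hoxa2 and Egr2 of the hindbrain were at or below 0.40 FPKM in all 4 libraries.

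The deepest falls included factors of early neural ectoderm and of the epiblast. Hesx1, a repressor of the anterior neural plate, dropped from 159.9 and 165 FPKM to 0.47 and 0.26 FPKM (-6.91 ± 0.13, adjusted p = 2.06e-19). Foxd4, a forkhead factor of early neural ectoderm, dropped from 79.4 and 77.6 to 0.78 and 0.63 FPKM (-5.54 ± 0.05). Pim2, which encodes a survival kinase, fell from 341 and 341 to 10.4 and 10.5 FPKM (-4.90 ± 0.04) and Foxh1, the partner of the SMADs in TGF-beta signalling, from 64.8 and 61 to 2.44 and 2.52 FPKM (-4.20 ± 0.04). Fgf5, the ligand that marks primed epiblast, fell from 18.4 and 18.7 to 0.16 and 0.25 FPKM (-4.02 ± 0.09) and Pou3f1, a POU factor that precedes neural commitment, from 48.9 and 49.7 to 2.84 and 2.9 FPKM (-3.70 ± 0.06). Robo3, a receptor of crossing axons, fell from 35.1 and 33.6 to 0.33 and 0.5 FPKM and Ntn1, the guidance ligand Netrin-1, from 27.1 and 27.1 to 1.35 and 1.27 FPKM. The remaining falls were Calca (calcitonin and CGRP, 34.2 and 37.9 to 1.53 and 1.56 FPKM), Nptx2 (neuronal pentraxin, 23.6 and 22.3 to 0.94 and 0.98 FPKM) and Ermn (ermin, an actin-binding protein, 11.8 and 12.5 to 0.1 and 0.16 FPKM), and Fzd5, described with the Wnt genes.

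Pluripotency genes fell as a group. Of 14 tested, 12 fell and 1 rose, with a median change of -0.82. Pou5f1, the core factor Oct4, went from 84.1 and 86 to 14.8 and 12.8 FPKM (-2.55 ± 0.05) and Utf1, a chromatin factor of stem cells, from 89.4 and 91.7 to 7.87 and 7.37 FPKM (-3.41 ± 0.05). Sox2, which neural progenitors share, fell by 0.30 on the log2 scale and still read 175 and 170.3 FPKM on day 6. Klf4 was the member that rose, from 1.55 and 1.71 to 2.38 and 2.6 FPKM. Of 9 formative genes, 6 fell and 2 rose, with a median change of -0.68. Dnmt3b, a de novo DNA methyltransferase, fell from 124 and 125 to 9.95 and 9.91 FPKM (-3.52 ± 0.03) and Lin28a, which blocks let-7 maturation, from 255 and 255 to 69.6 and 69.2 FPKM (-1.86 ± 0.02), while Lin28b rose by 0.47 ± 0.03. Sox3, shared with neural progenitors, rose from 81.2 and 79.1 to 251 and 266 FPKM.

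Epithelial genes fell and neural progenitor genes rose. Cdh1, the epithelial cadherin, went from 47.7 and 47.8 to 3.44 and 3.26 FPKM (-3.49 ± 0.04) and Epcam from 58.1 and 60.7 to 6.09 and 6.33 FPKM (-3.07 ± 0.06). Cdh2, the neural cadherin, rose from 61.3 and 61.5 to 168 and 166 FPKM (1.43 ± 0.04). Vim, the intermediate filament of neuroepithelium, rose from 50.6 and 48.3 to 463 and 471 FPKM (3.22 ± 0.03, adjusted p = 1e-23). All 10 neural progenitor genes tested rose, with a median change of 1.45 and a summed level of 405 and 396 FPKM on day 4 against 1422 and 1431 on day 6. Fabp7, the fatty acid binding protein of radial glia, rose from 3.03 and 3.06 to 73.8 and 72.4 FPKM (4.20 ± 0.11) and Nes from 19 and 19.1 to 56.2 and 52.7 FPKM (1.47 ± 0.06). Of the 12 surface ectoderm and epithelial genes tested, 7 fell and 4 rose, with a median change of -0.42, or -0.18 with no filter and -0.90 at a mean of at least 5 FPKM. Tfap2c, an ectodermal and germ cell factor, was the exception in size, rising from 1.28 and 1.44 to 16 and 16.6 FPKM (2.87 ± 0.06).

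In the Wnt pathway, 23 of 34 genes tested rose and 5 fell, with a median change of 0.92, or 1.498 at a mean of at least 5 FPKM. The other lines leaned the same way. There 23 rose and 8 fell without Dex (median 1.27), 23 and 6 in KO (0.71) and 21 and 7 in WT (0.71). Among ligands, Wnt7b rose from 2.72 and 2.81 to 105 and 103 FPKM (4.81 ± 0.06, adjusted p = 3.21e-22), Wnt7a from 0.03 and 0 to 3.92 and 4.05 FPKM, Wnt5a from 0.64 and 0.76 to 4 and 4 FPKM and Wnt5b from 9.69 and 9.99 to 22.1 and 22.7 FPKM. The 3 R-spondins listed, secreted proteins that stabilise Wnt receptors, rose. Rspo3 went from 0.1 and 0.11 to 35.6 and 34.5 FPKM (5.03 ± 0.05), Rspo2 from 0.06 and 0.07 to 24 and 23.8 FPKM (4.55 ± 0.04) and Rspo1 from 11.8 and 13.9 to 57.4 and 56.1 FPKM (2.06 ± 0.11). Rspo3 and Rspo2 rose further without Dex, to 83.7 ± 1.1 and 48.2 ± 0.45 FPKM on day 6. The change with Dex minus that without was -1.04 ± 0.07 and -0.98 ± 0.06. They rose less in KO, to 9.38 ± 0.085 and 18.3 ± 0.15 FPKM, and in WT, to 3.98 ± 0.014 and 2.23 ± 0.035. Receptors diverged. Fzd5, the Frizzled of the eye field and neural retina, fell from 41.5 and 41.6 to 2.6 and 2.74 FPKM (-3.54 ± 0.04) and Fzd8 from 12.2 and 12.9 to 4.22 and 4.17 FPKM (-1.38 ± 0.06), while Fzd10 rose from 0.72 and 0.64 to 9.85 and 10.1 FPKM (2.71 ± 0.07), Fzd1 from 7.12 and 8.25 to 22 and 23.1 FPKM and Fzd3 from 4.87 and 5.3 to 17 and 16.7 FPKM.

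Wnt antagonists split and most target genes rose. Frzb fell from 32.4 and 32.5 to 4.44 and 4.19 FPKM (-2.66 ± 0.08), Dkk1 from 8.15 and 7.84 to 3.02 and 2.51 FPKM (-1.26 ± 0.08) and Sfrp5 from 2.22 and 2.58 to 0.12 and 0.11 FPKM (-1.61 ± 0.10). Sfrp1 and Sfrp2, secreted Frizzled-like proteins, rose by 0.72 ± 0.03 and 0.93 ± 0.04, and Dkk3 by 1.10 ± 0.06. Of the listed transcriptional targets of beta-catenin, 4 rose, among them Axin2 from 8.46 and 8.62 to 29.7 and 31.3 FPKM (1.72 ± 0.08), Sp5 from 2.74 and 2.47 to 14.3 and 15.2 FPKM (2.13 ± 0.09) and Nkd1 from 15.4 and 13.8 to 58.6 and 59.4 FPKM (1.94 ± 0.11). Lef1, Rnf43 and Znrf3, targets as well, did not pass the test (adjusted p = 0.929, 0.126 and 0.291).

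BMP pathway genes also leaned upward, with 15 of 22 tested higher, 2 lower and a median change of 1.10. In the other lines 12 were higher and 8 lower without Dex (median 0.242), 13 and 3 in WT (0.393) and 12 and 6 in KO (0.465). Beside Bmp4, the ligands Bmp7 (7.41 and 8.03 to 15.5 and 16.8 FPKM), Bmp6 (0.18 and 0.18 to 2.85 and 2.95 FPKM) and Bmp2 (0.07 and 0.09 to 1.64 and 1.62 FPKM) rose, and so did Gdf11, a TGF-beta relative that restrains retinal ganglion cell numbers (3.91 and 3.51 to 22 and 22.4 FPKM). Inhibitors that rose were Nog (1.31 and 1.72 to 21.1 and 19.8 FPKM, 3.10 ± 0.11), Fst (2.55 and 3.18 to 9.39 and 8.74 FPKM) and Chrd, while Grem1 fell from 3.16 and 2.87 to 0.14 and 0.17 FPKM. The inhibitory SMADs, which BMP signals induce, rose: Smad6 from 3.31 and 4.01 to 9.54 and 10.1 FPKM and Smad7 from 1.57 and 1.24 to 3.59 and 3.1 FPKM. All 4 Id genes, helix-loop-helix inhibitors and common BMP targets, rose, from a log2 change of 0.25 ± 0.02 for Id1 to 1.43 ± 0.04 for Id3, 1.56 ± 0.07 for Id2 and 5.00 ± 0.08 for Id4, which went from 0.88 and 0.69 to 55.8 and 56.2 FPKM.

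FGF pathway genes leaned the other way, with 13 of 21 lower, 2 higher and a median change of -0.28, or -0.75 at a mean of at least 5 FPKM. In the other lines 12 were lower and 6 higher without Dex (median -0.43), 14 and 3 in KO (-0.6) and 9 and 8 in WT (-0.03). Most feedback regulators and the ETS targets of ERK fell, among them Dusp4 from 32.1 and 31.6 to 3.55 and 3.45 FPKM (-2.87 ± 0.03), Spry2 from 8.91 and 8.56 to 2.62 and 2.61 FPKM (-1.43 ± 0.04), Etv4 from 5.26 and 5.28 to 1.8 and 2.38 FPKM and Etv5 from 8.16 and 8.01 to 3.94 and 4.01 FPKM. Dusp6, another ERK phosphatase, rose by 0.47 ± 0.05, from 7.85 and 8.82 to 11.8 and 12.1 FPKM. Of the receptors, Fgfr1 fell from 122 and 121 to 80.5 and 80.3 FPKM and Fgfr3 rose from 2.64 and 1.95 to 5.29 and 5.84 FPKM.

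**Figure D3:**
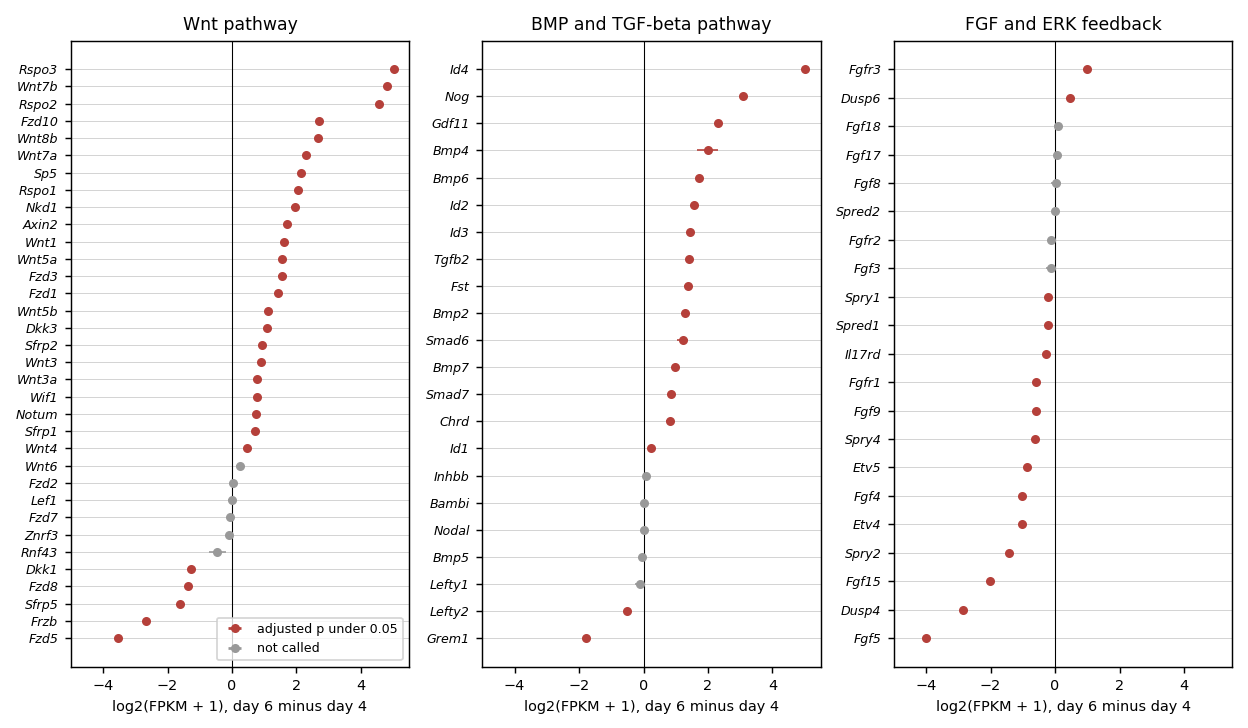
Log2 change from day 4 to day 6 in the Dex cultures (horizontal, log2(FPKM + 1)) with its standard error for every tested gene of the Wnt, BMP and TGF-beta, and FGF lists. Red points passed the test and grey points did not, with most Wnt and BMP points right of 0 and most FGF points left of it.

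Notch genes moved both ways, and most Hedgehog and retinoic acid genes rose. Of 14 Notch genes tested, 8 rose and 5 fell, with a median change of 0.49. The Notch targets Hes1 (51 and 50.4 to 83.7 and 84.7 FPKM), Hes5 (25 and 26.2 to 53.1 and 57.6 FPKM) and Nrarp (9.76 and 10.2 to 56.2 and 58.4 FPKM, 2.41 ± 0.05) rose, as did the ligand Dll1 (11.3 and 11.3 to 28.6 and 27 FPKM). Of 10 Hedgehog genes tested, 8 rose and 1 fell, with a median change of 0.58: the co-receptors Gas1, Cdon and Boc rose by 1.06 ± 0.09, 0.94 ± 0.07 and 2.12 ± 0.06, and Gli3, the main repressor, by 1.13 ± 0.05. Shh itself was at or below 0.02 FPKM in all 4 libraries. Of 12 retinoic acid genes tested, 8 rose and 3 fell, with a median change of 0.73, or 0.42 with no filter. Crabp2, a retinoic acid carrier, rose from 389.8 and 372 to 1437 and 1444 FPKM (1.92 ± 0.04) and Crabp1 from 35.5 and 35.7 to 135 and 139 FPKM, while the receptor Rarg fell from 30.6 and 30.9 to 7.54 and 7.74 FPKM (-1.88 ± 0.03) and the degrading enzyme Cyp26a1 from 4.7 and 4.59 to 0.74 and 1.09 FPKM (-1.57 ± 0.10).

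Neuronal genes did not rise together. Proneural factors mostly rose (6 of 9, with 2 lower and a median change of 0.50, or 0.29 with no filter). Neurog1 rose from 0.06 and 0.02 to 3.28 and 3.16 FPKM, while Neurog2 fell from 7.7 and 7.55 to 3.67 and 3.85 FPKM. Of 18 genes of neuron structure, 7 rose and 7 fell, with a median change of -0.06, or -0.52 at a mean of at least 5 FPKM. Stmn2, a growth cone protein, fell from 47.1 and 47.2 to 6.99 and 6.72 FPKM (-2.62 ± 0.04), Tubb3 from 190.3 and 193 to 134 and 133 FPKM and Ina, an intermediate filament of young neurons, from 26.6 and 29.2 to 7.28 and 7.74 FPKM. Pou4f1, a sensory neuron and ganglion cell factor, rose from 1.19 and 1.28 to 10.1 and 10.8 FPKM (2.36 ± 0.12) and Map2 from 2.15 and 1.84 to 6.07 and 6.28 FPKM.

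Markers of other germ layers differed in direction. The 2 mesendoderm genes tested, Eomes and Gsc, both fell, Eomes from 4.6 and 4.71 to 0.62 and 0.56 FPKM, and the other 5 listed stayed at or below 0.33 FPKM. Of 14 endoderm genes, 4 rose and 4 fell, with a median change of -0.01, or 0.29 at a mean of at least 5 FPKM. Gata4 and Gata6 stayed below 1 FPKM, Afp was listed at 0, and Apoe, a lipid carrier of many cell types, changed by 0.29 ± 0.08 from 1002 and 997 to 1226 and 1212 FPKM. Of 10 mesodermal genes tested, 8 rose and 2 fell, with a median change of 0.32, led by Acta2, smooth muscle actin (0.45 and 0.69 to 15.8 and 16.8 FPKM), and Col3a1, a fibrillar collagen (0.09 and 0.04 to 5.34 and 4.24 FPKM). Lens genes rose in 5 of 7 tested, with a median change of 0.87: Foxe3, the lens vesicle factor that is also made in dorsal midbrain, went from 0.11 and 0 to 13.8 and 12.7 FPKM (3.75 ± 0.07), with the crystallins Cryaa and Crybb2 listed at 0 on both days.

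Glucocorticoid response genes showed no common direction between the 2 days, both of which had Dex. Of 15 tested, 6 rose and 5 fell, with a median change of -0.08, or -0.029 without replicate 1 of day 4 and -0.035 at a mean of at least 5 FPKM. Fkbp5, the standard glucocorticoid target, fell from 21.3 and 21.5 to 15.7 and 15.4 FPKM (-0.44 ± 0.03), with 21.9 ± 0.18 to 14.5 ± 0.35 FPKM in the fusion without Dex. Sgk1, a kinase gene, rose from 2.7 and 2.68 to 21 and 21.4 FPKM (2.59 ± 0.11). The metallothioneins fell, Mt2 from 746 and 743 to 154 and 158 FPKM (-2.25 ± 0.06) and Mt1 from 637 and 642 to 230.2 and 239 FPKM. Nr3c1, which encodes the glucocorticoid receptor, read 0.64 and 0.53 FPKM on day 4 and 0.48 and 0.52 on day 6 (adjusted p = 0.491, not called). Genes of the m6A machinery moved little: of 15 tested, 6 rose and 1 fell, with a median change of 0.06, and the largest change was that of Rbm15b, an adaptor of the writer complex, at 0.41 ± 0.06.

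More proliferation genes fell than rose, and metabolic genes fell. Of 23 DNA replication genes, 8 rose and 11 fell, and of 20 mitotic genes, 5 rose and 10 fell, with medians of -0.04 and -0.06. Against this, 37.4% of all genes were higher and 27.7% lower. Changes in these lists ran from -0.87 ± 0.07 for Orc1, of the origin recognition complex, to 0.58 ± 0.05 for the centromere histone gene Cenpa. Bub1, a kinase of the spindle checkpoint, fell from 40.8 and 40.5 to 25.2 and 25.7 FPKM and Mcm3, of the replicative helicase, from 118 and 119 to 88.7 and 85.5 FPKM, while Mki67 rose from 28.1 and 28.4 to 32.6 and 32.4 FPKM. Cyclins shifted more: Ccnd2 rose from 8.49 and 7.96 to 43.2 and 43.3 FPKM (2.26 ± 0.08) and Ccnd1 fell from 22.4 and 22.5 to 15.7 and 15.4 FPKM. The CDK inhibitors Cdkn2c (0.96 and 1.2 to 10.6 and 9.3 FPKM) and Cdkn1c (8.71 and 6.73 to 26.5 and 27.4 FPKM) rose. Of 20 cholesterol synthesis genes, 19 fell and none rose, with a median change of -0.60. Fdps, which encodes farnesyl diphosphate synthase, fell from 287 and 284 to 161 and 162 FPKM (-0.82 ± 0.02). Of 21 glycolysis and hypoxia genes, 15 fell and 4 rose, with a median change of -0.46. Slc2a1, the glucose transporter GLUT1, fell from 587 and 591 to 223 and 228 FPKM (-1.38 ± 0.03), and Vegfa rose from 34.6 and 36.1 to 58.4 and 55.3 FPKM. Of 11 stress response genes downstream of ATF4, 9 fell and 2 rose, with a median change of -0.48, Slc7a3 falling furthest, from 22.7 and 20.2 to 4.66 and 5.17 FPKM. Of 15 p53 targets, 8 fell and 2 rose, with a median change of -0.21.

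Imprinted genes, which are expressed from 1 parental allele, split evenly (8 higher and 8 lower of 17 tested, with a median change of -0.08, or 0.39 at a mean of at least 5 FPKM). H19, a maternally expressed non-coding RNA, rose from 97.6 and 94.8 to 802 and 765 FPKM (3.01 ± 0.09, adjusted p = 3.44e-16), while Igf2, its neighbour, rose less, from 13.8 and 13.5 to 22.3 and 21.9 FPKM (0.65 ± 0.12). Plagl1, a zinc finger factor, rose from 0.88 and 1.16 to 34 and 32.9 FPKM (4.09 ± 0.18). Mest fell from 1589.6 and 1582 to 726 and 722 FPKM (-1.13 ± 0.06), Meg3 from 1264 and 1249.6 to 720.4 and 722 FPKM (-0.80 ± 0.02) and Snrpn from 152 and 148 to 36.8 and 38.4 FPKM (-1.97 ± 0.02).

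**Figure D4:**
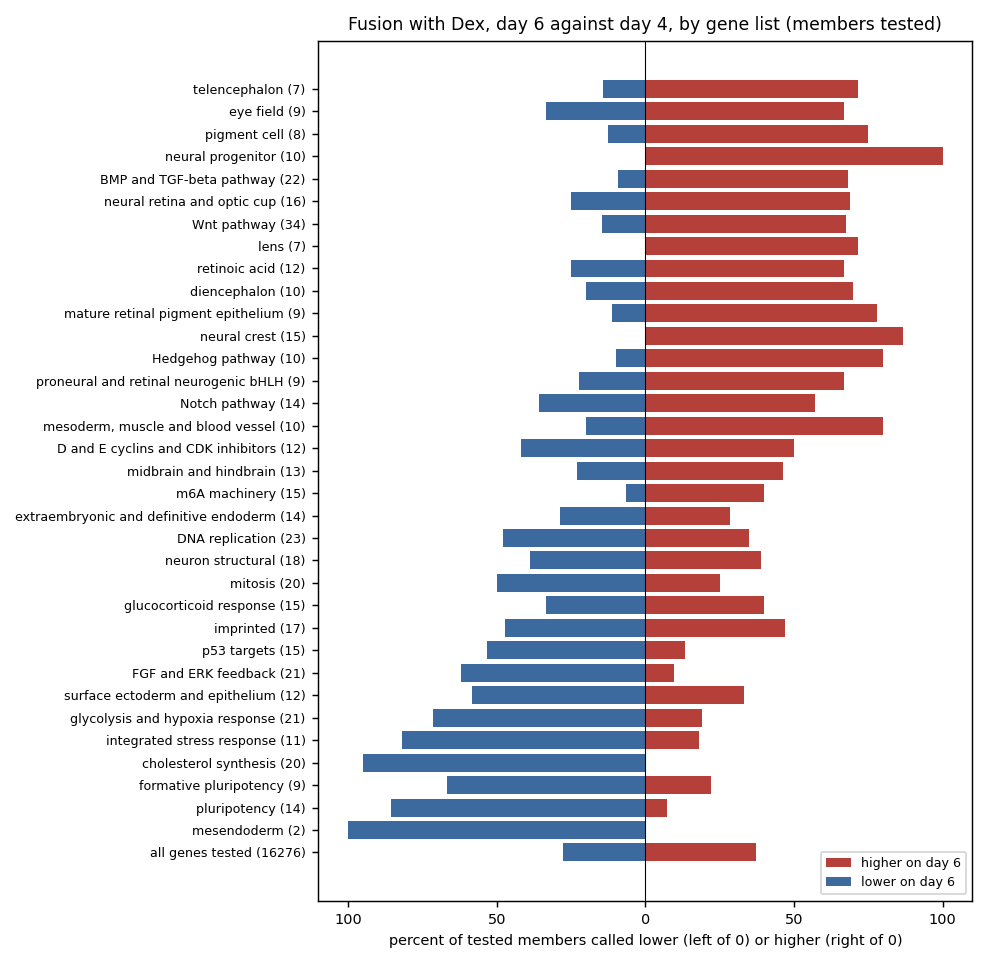
Percent of the tested members of each gene list that passed the test as higher (right, red) or lower (left, blue) on day 6 in the Dex cultures, with the number tested in brackets and all genes tested as the bottom bar. Lists are ordered by median change, from mesendoderm and pluripotency at the low end to telencephalon at the top.

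The same 2 days were compared in the other lines to see where the Dex cultures differed. The number of genes called was similar: 11048 in the fusion without Dex (67.9%), 10862 in WT (66.7%) and 10633 in KO (65.3%). Of the 1127 genes that rose by at least 1 with Dex, 673 did so in the fusion without Dex (59.7% of them and 62% of that line's 1085), 532 in WT (47.2%, and 50% of 1065) and 603 in KO (53.5%, and 61.7% of 977). Such rises made up 6.67%, 6.54% and 6% of all genes in those lines. Of the 605 that fell by at least 1, 450 did so without Dex (74.4% of them and 50.8% of 886), 328 in WT (54.2%, and 58.3% of 563) and 416 in KO (68.8%, and 49.9% of 834), against 5.44%, 3.46% and 5.12% of all genes. The difference between the change with Dex and that in another line was then tested gene by gene. It passed the test for 6704 genes against the fusion without Dex (41.2%), 8468 against WT (52%) and 6364 against KO (39.1%), and reached at least 1 for 498 (3.06%), 876 (5.38%) and 673 genes (4.13%). These 3 comparisons share the 4 Dex libraries. Of the 1127 rises with Dex, 289 (25.6%) were larger than in each of the other 3 lines, 57 (5.1%) by at least 1 in each. Of the 605 falls, 81 (13.4%) were deeper than in all 3, 16 (2.6%) by at least 1 in each. These genes were chosen by their change with Dex, which is part of each difference and favours a difference in that direction. No share over all genes was computed for these counts, so they are a description only.

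Trpm1 was among the 5 most positive differences from each of the other lines, and Dct and Pmel among the 5 from the fusion without Dex. Trpm1 went from 0.08 ± 0.028 to 0.595 ± 0.021 FPKM without Dex, from 0.065 ± 0.0071 to 2.4 ± 0.22 in WT and from 0.015 ± 0.0071 to 0.21 ± 0.014 in KO. The rise with Dex exceeded theirs by 4.97 ± 0.17, 3.86 ± 0.17 and 5.28 ± 0.17 on the log2 scale (limma adjusted p = 1.04e-13, 1.34e-12 and 1.8e-14). Dct and Pmel rose by 4.00 ± 0.09 and 4.03 ± 0.22 more with Dex than without. Mitf differed from the fusion without Dex by 2.15 ± 0.11 and from KO by 2.17 ± 0.11, but its difference from WT, where it went from 0.46 ± 0.042 to 5.75 ± 0.4 FPKM, did not pass (adjusted p = 0.22). Of the 8 pigment genes tested, 6 had a more positive change than without Dex (24.2% of all genes) and 6 a more positive one than in KO (22.5%), 5 than in WT (23%).

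Tbx2, Slc38a8 and C1qtnf5 also rose more with Dex than in each of the other 3 lines. Tbx2 was below 1 FPKM on both days in each of the other lines, with differences of 4.10 ± 0.12, 4.17 ± 0.12 and 3.84 ± 0.12. Slc38a8, an amino acid transporter of the retina, rose from 0.08 and 0.12 to 20.8 and 21.1 FPKM with Dex and reached at most 0.965 ± 0.035 FPKM on day 6 elsewhere, in WT. C1qtnf5, a secreted protein of the pigment epithelium, rose from 0.05 and 0.11 to 17.8 and 19.7 FPKM with Dex. It also rose in KO, from 0.535 ± 0.26 to 8.26 ± 0.078 FPKM, and without Dex, from 0.56 ± 0.071 to 2.99 ± 0.17, and read 0.42 ± 0.16 to 0.515 ± 0.021 FPKM from day 4 to day 6 in WT. Its rise with Dex exceeded the changes without Dex, in WT and in KO by 2.84 ± 0.21, 4.09 ± 0.21 and 1.59 ± 0.21. It overlaps Mfrp on the same strand, and reads of the 2 genes may not be separable. Id4 and Hmx1 were among the 5 most positive differences from KO, at 4.28 ± 0.11 and 4.04 ± 0.19. Id4 also rose without Dex, from 0.79 to 13.2 ± 0.18 FPKM, and in WT, from 1.3 ± 0.3 to 7.5 ± 0.28. Hmx1 also rose in WT, from 0.69 ± 0.27 to 28.2 ± 0.59 FPKM, and its difference from WT did not pass (-0.31 ± 0.19, adjusted p = 0.171). Rgcc, a cell cycle regulator, rose from 1.21 and 1.22 to 26.8 and 27.9 FPKM with Dex and fell from 2.21 ± 0.071 to 0.3 ± 0.042 in KO (4.98 ± 0.16). It also rose in WT, from 0.61 ± 0.21 to 12.4 ± 1.8 FPKM (0.62 ± 0.16), and without Dex, from 1.8 ± 0.035 to 3.8 ± 0.49 (2.90 ± 0.16). Folr1, the folate receptor, rose from 1.44 and 2.18 to 55.8 and 48 FPKM with Dex and from 11.6 ± 0.57 to 16.4 ± 3 in WT (3.79 ± 0.21). It rose without Dex too, from 1.52 ± 0.22 to 34.9 ± 1.3 FPKM, a change whose difference from that with Dex did not pass (0.41 ± 0.21, adjusted p = 0.133), and in KO, from 2.5 ± 1.1 to 32.4 ± 2.3 (0.95 ± 0.21).

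Eye field genes differed from both WT and the fusion without Dex. Rax fell further without Dex, from 6.47 ± 0.057 to 0.91 ± 0.17 FPKM (difference 1.53 ± 0.09, adjusted p = 1.47e-10), rose in WT (-2.33 ± 0.09, adjusted p = 1.43e-13) and began at 1.2 ± 0.0071 FPKM in KO. Six6 rose to 69.7 ± 0.94 FPKM in WT by day 6 and stayed at or below 0.075 ± 0.021 FPKM without Dex (differences of -3.14 ± 0.08 and 2.75 ± 0.08). The eGFP row fell without Dex, from 2.58 ± 0.28 to 0.2 ± 0.14 FPKM (2.59 ± 0.28). Its change with Dex differed from those in WT and KO by -1.56 ± 0.28 and 1.30 ± 0.28. With a pseudocount of 0.1 these differences were -1.59 and 2.31 and did not pass (adjusted p = 0.192 and 0.0723). Of 9 eye field genes, 7 had a more negative change than in WT (29.1% of all genes) and 6 a more positive one than without Dex.

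The most negative differences from WT included Vax1 and Pax2 of the optic stalk. Vax1 rose from 0.355 ± 0.21 to 44.8 ± 1.7 FPKM in WT (difference -5.28 ± 0.34), Pax2 from 3.3 ± 0.13 to 39.5 ± 0.86 (-4.41 ± 0.07) and Ntn1 from 6.62 ± 0.064 to 12.8 ± 0.59 (-4.46 ± 0.12), while Fzd5 went from 35.7 ± 0.7 to 42.2 ± 0.41 (-3.77 ± 0.06). Dlk1, an imprinted Notch ligand relative, rose from 3.51 ± 0.16 to 289 ± 7.5 FPKM in WT and was 2.78 and 1.94 FPKM on day 4 and 3.59 and 3.36 on day 6 with Dex (difference -5.58 ± 0.17). Its change with Dex passed the test (0.42 ± 0.12) but not without replicate 2 of day 4 (0.24, adjusted p = 0.121). The lack of the WT rise was not particular to Dex. Without Dex and in KO the log2 changes were -2.31 and -2.25 for Pax2 and -2.56 and -2.10 for Ntn1. They were -4.01 and -3.35 for Fzd5 and -0.96 and -0.95 for Dlk1. Vax1 read 0.195 ± 0.035 FPKM without Dex and 1.325 ± 1.3 in KO on day 6. The largest positive difference from WT, that of Bc1, a short non-coding RNA, rested on libraries at 0: it was listed at 0 in both day 4 Dex libraries and both day 6 WT libraries (difference 7.63 ± 1.31).

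Other genes rose less or fell further with Dex than in the fusion without Dex or in KO. Sox10 reached 18.6 ± 0.53 FPKM on day 6 without Dex and 14.2 ± 0.078 in KO (differences -1.34 ± 0.13 and -1.02 ± 0.13). Wnt8b rose further without Dex, from 1.19 ± 0.014 to 72 ± 2.7 FPKM (-2.40 ± 0.10), as did Scube2, a carrier of Hedgehog ligands, from 0.53 ± 0.071 to 9.68 ± 0.15 (-2.55 ± 0.09). Hes3, a Hes repressor of neural boundaries, went from 6.02 and 5.48 to 4.97 and 5.33 FPKM with Dex (adjusted p = 0.316, not called), from 3.52 ± 0.46 to 20.6 ± 0.25 without Dex (-2.40 ± 0.16) and from 3.37 ± 0.11 to 40.2 ± 1.1 in KO (-3.37 ± 0.16). Efnb2 fell with Dex and rose in the other 3 lines, from 8.56 ± 0.26 to 31.9 ± 0.31 FPKM without Dex (-2.47 ± 0.05). Mest fell with Dex from a day 4 level of 1586 ± 5.4 FPKM and rose elsewhere, from 358 ± 1.9 to 849 ± 21 without Dex (-2.37 ± 0.09) and from 251 ± 9.9 to 825 ± 12 in KO (-2.85 ± 0.09). Robo3 (-3.49 ± 0.13) and Ermn (-3.27 ± 0.07) fell further than in KO, where their day 4 levels were 4.17 ± 0.014 and 0.245 ± 0.035 FPKM. Phlda1, a pleckstrin homology domain gene, was 29.5 and 28.2 FPKM on day 4 and 26.7 and 27.9 on day 6 with Dex (adjusted p = 0.611, not called) and rose from 5.91 ± 0.57 to 47.3 ± 0.84 in KO (-2.88 ± 0.17).

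By list, 14 of 18 genes of neuron structure had a more negative change with Dex than without (17% of all genes) and 13 of 18 a more negative one than in KO (16.6%). Of 15 p53 targets, 11 had a more positive change than without Dex (24.2% of all genes) and none a more negative one (17%). Against WT both lists read otherwise. There 5 p53 targets had a more positive change and 6 a more negative one, and 8 and 4 of the genes of neuron structure did (23% and 29.1% of all genes). H19 rose with Dex by 2.80 ± 0.13, 2.68 ± 0.13 and 2.91 ± 0.13 more than without Dex, in WT and in KO, where day 6 levels were 78.3 ± 2.3, 229 ± 0.092 and 64 ± 0.33 FPKM. Scaling each library by a median-of-ratios factor moved the share of positive differences from 57.5% to 47.1% of calls against KO and from 44.2% to 52.2% against WT, so the balance of directions in these comparisons depends on the scaling. Against the fusion without Dex the share went from 58.8% to 54.2%.

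**Figure D5:**
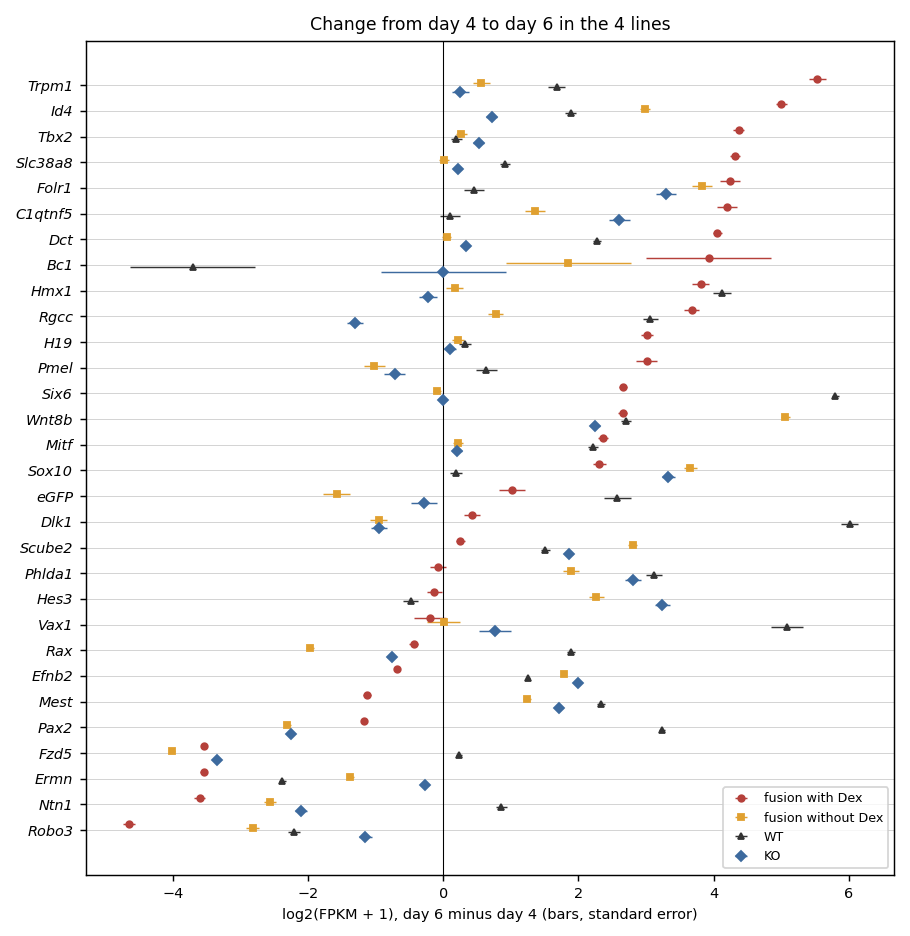
Log2 change from day 4 to day 6 with its standard error (horizontal, log2(FPKM + 1)) in the fusion with Dex (red circles), the fusion without Dex (orange squares), WT (black triangles) and KO (blue diamonds), for the genes with the largest differences and for Mitf, H19, eGFP, Six6, Rax and Sox10. For Trpm1, Tbx2 and Slc38a8 the red points lie right of all others, and for Efnb2 and Mest they lie left of 0 while the others lie right of it.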

How the data were processed

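Polyadenylated RNA of 32 libraries was sequenced in pairs, per the labels. The authors' deposited table gives FPKM per gene, rounded to 2 decimals, made with STAR and Cuffdiff on mm10 per the submitters' processing notes, with no versions given. It holds no counts, so no count model was used. Gene positions come from the annotation of that build. Groups follow the sample labels. Genes reaching 1 FPKM in at least 2 libraries were tested in R 4.3.3 with limma 3.58.1 (lmFit, contrasts.fit, eBayes with a trend) on log2(FPKM + 1), over all 32 libraries in 16 groups (16 residual degrees of freedom). Calls were two-sided at a Benjamini-Hochberg adjusted p under 0.05. The changes of 2 lines were compared by interaction contrasts. The fit was tested on simulated data. Named genes are the members of fixed gene lists, the 12 largest rises and 12 largest falls that reached 5 FPKM without overlap between days, the 5 most positive and 5 most negative differences in each interaction, and Mettl3, Nr3c1 and eGFP. Some genes these rules name are not reported here. Members and lists were chosen with earlier results of these data known. Of 44 genes named by rank, 22 overlap another annotated gene, and no source used here states that strand was counted. Rows that share a symbol (234 rows, with Ddit3 and Aldoa of the lists) were kept apart by gene identifier. They could be tested and counted among all genes but were not matched to the lists or named. Alternatives tried were the pseudocount, the filter, the scaling, leaving out each library, fewer groups in the fit and a replicate block.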

Additional observations from a re-analysis of the deposited data

Results flagged for a closer look

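Results are listed here because the change from day 4 to day 6 in the fusion with Dex differed from that in another line by a test of the difference itself (limma, Benjamini-Hochberg adjusted p under 0.05). The 3 comparisons share the 4 Dex libraries, and with calls for 41.2%, 52% and 39.1% of genes a call alone is common. Against the fusion without Dex 6704 genes differed, against WT 8468 and against KO 6364.

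Against the fusion without Dex, the log2 change with Dex was more positive by 4.97 for Trpm1, 4.31 for Slc38a8, 4.1 for Tbx2, 4.03 for Pmel, 4.0 for Dct, 2.8 for H19, 2.75 for Six6, 2.59 for eGFP, 2.15 for Mitf and 1.53 for Rax. It was more negative for Scube2 (-2.55), Efnb2 (-2.47), Wnt8b (-2.4), Hes3 (-2.4), Mest (-2.37) and Sox10 (-1.34).

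Against WT it was more positive by 7.63 for Bc1, 4.17 for Tbx2, 4.09 for C1qtnf5, 3.86 for Trpm1, 3.79 for Folr1, 2.68 for H19 and 2.12 for Sox10. It was more negative for Dlk1 (-5.58), Vax1 (-5.28), Ntn1 (-4.46), Pax2 (-4.41), Fzd5 (-3.77), Six6 (-3.14), Rax (-2.33) and eGFP (-1.56). The value for Bc1 has a large standard error, with libraries at 0 on one of the days in each line.

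Against KO it was more positive by 5.28 for Trpm1, 4.98 for Rgcc, 4.28 for Id4, 4.11 for Slc38a8, 4.04 for Hmx1, 2.91 for H19, 2.66 for Six6, 2.17 for Mitf, 1.3 for eGFP and 0.32 for Rax. It was more negative for Robo3 (-3.49), Hes3 (-3.37), Ermn (-3.27), Phlda1 (-2.88), Mest (-2.85) and Sox10 (-1.02).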

How the results depend on the processing

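Of 249 gene results, 240 had the same sign and the same call under all alternatives run. The call on eGFP was lost with a pseudocount of 0.1 (against day 4, against WT and against KO), that on Scube2 with that pseudocount and with only the groups compared in the fit (adjusted p = 0.203 and 0.0655), and that on Dlk1 with only the groups compared (adjusted p = 0.0914) or without replicate 2 of day 4. Mettl3 passed under 2 alternatives and Rnf43 with only the groups compared (adjusted p = 0.0441). Of uncalled genes, Mlana reversed to 0.077 with a pseudocount of 0.1 and ranged from -0.092 to 0.084 without 1 library, and Lef1 from -0.043 to 0.017. The cause was not tested.

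Requiring a mean of 5 FPKM left 7030 genes called between the days with Dex, fewer genes being tested. Requiring a change of at least 1 left 1732, and 498, 876 and 673 for the differences from the fusion without Dex, WT and KO. Leaving out 1 library at a time gave 9723 to 9771 calls between the days, and 5924 to 6099, 7800 to 7934 and 5606 to 5712 for the 3 differences. Without the genes of chromosome 8 the difference from WT was called for 7974 genes. The median difference from WT of chromosome 8 genes minus that of all other genes was 0.106. It was -0.121 for chromosome 18 and 0.087 for chromosome 7, which were not left out. Rescaling moved the median change over all genes from 0.042 to 0.

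List medians depended on the filter, as given beside them above. With a mean of 5 FPKM that of diencephalon reversed to -0.053, of imprinted genes to 0.39 and of endoderm to 0.29. The endoderm median was 0 with no filter and -0.048 to 0.0028 without 1 library. A pseudocount of 0.1 moved the optic cup median to 3.07, that of mesoderm to 0.98 and of neural crest to 1.14. Leaving out replicate 1 of day 4 moved the DNA replication median to -0.063, and replicate 2 of day 4 that of mitosis to -0.039.

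With the replicate block 10570 genes were called between the days, and 6689, 8451 and 6321 for the 3 differences. The numbers do not pair the libraries: the duplicates' differences on the 2 days correlated at 0.056, within the -0.088 to 0.125 over 120 pairs of groups.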

Other observations

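The genes in these paragraphs belong to no list described above and were chosen after their values were seen, so their values are a description. Several junction and polarity genes of epithelia fell with Cdh1 in the Dex cultures. Cldn7, a tight junction claudin, went from 25.4 and 26 FPKM on day 4 to 2.49 and 2.82 on day 6 (log2 change -2.87 ± 0.10), Cldn6 from 43.2 and 45.1 to 7.9 and 7.82 FPKM (-2.35 ± 0.10) and Esrp1, an epithelial splicing regulator, from 10.2 and 10.4 to 0.42 and 0.53 FPKM (-2.94 ± 0.06). St14, the membrane protease matriptase, went from 13.7 and 14 to 1.92 and 2 FPKM. Among forebrain factors outside the lists, Dmrta2 rose from 9.08 and 8.67 to 161 and 167 FPKM (4.06 ± 0.08), Dmrt3 from 11 and 12.9 to 87.9 and 93 FPKM and Nr2f2 from 3.9 and 4.25 to 75.2 and 76.5 FPKM. Metrn, which encodes the secreted neurotrophic protein meteorin, went from 29 and 27.9 to 538 and 541 FPKM (4.20 ± 0.04) and rose in the other lines too, from 39.1 ± 0.28 to 376 ± 0.85 FPKM in WT.

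Some rises with Dex were at least 1 larger than in each of the other 3 lines. Rpgrip1, a photoreceptor cilium gene, read 0.78 and 0.34 FPKM on day 4 and 11.7 and 16.8 on day 6, with duplicates that differed widely, and stayed below 1 FPKM in the other lines on both days. Cplx3, a complexin of ribbon synapses, went from 0.47 and 0.48 to 7.78 and 5.55 FPKM. Necab2, a neuronal calcium-binding protein gene, went from 13.5 and 15.2 to 144 and 142 FPKM, against 16.7 ± 0 to 39.6 ± 2 without Dex. The endocytic receptor gene Lrp2 was among the deeper falls, from 20.5 and 20.9 to 5.25 and 4.91 FPKM, against 14.7 ± 0.65 to 14.3 ± 0.16 in WT. Col9a1, a collagen of the ciliary margin and vitreous, rose with Dex from 0.22 and 0.13 to 9.27 and 8.74 FPKM and in WT from 0.355 ± 0.035 to 21.2 ± 1.1, and stayed at 0.275 ± 0.078 FPKM without Dex and 0.25 ± 0 in KO on day 6.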
